A study of Homo sapiens with 6 samples.

Results

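The genes described here encode ATP-binding cassette (ABC) proteins and were taken as every gene symbol in the deposited count tables with ABC, a subfamily letter A to G and a number. That rule found 43 of the 23059 listed genes. They comprise 12 genes of subfamily A, 8 of B, 11 of C, 4 of D, 1 of E, 3 of F and 4 of G. RNA was sequenced in bulk from HCC-LM3, a human hepatocellular carcinoma cell line, in 3 libraries of cells given apigenin, a plant flavone, and 3 libraries of DMSO control cells. The sources used here give neither the dose of apigenin nor the duration of treatment. The question was how apigenin changes transcript levels. The labels call the libraries biological replicates and say no more about separate cultures, so the p-values measure the spread between these libraries.

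ABC proteins bind and hydrolyse ATP, and most of them use it to move a substrate across a membrane. In hepatocytes, members at the canalicular membrane send bile salts, phospholipid, cholesterol and conjugated drugs into bile, while others load cholesterol onto lipoproteins or return conjugates to blood. In tumour cells the drug exporters are studied for multidrug resistance. The E and F subfamilies lack membrane domains and act on ribosomes.

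Library totals were 33882145 to 37983636 counts in the apigenin libraries and 34647650 to 37276429 in the DMSO libraries. On these totals 0 reads allow up to 0.0885 counts per 1000000, a limit that covers counting error only. CPM below are counts per 1000000 of each library's total after the low-count filter, adjusted by edgeR's TMM scaling factor. The epithelial keratins KRT8 and KRT18 made up most of the hepatocyte marker sum, which spanned 1705 to 1935 deposited FPKM in apigenin libraries and 1918 to 1972 FPKM in DMSO libraries. ALB (22.6 to 23.6 FPKM with apigenin, 52.1 to 54.8 FPKM with DMSO), AFP and HNF4A were present. ALB was thus lower in every apigenin library, and the part of hepatocyte markers in the ABC results was not tested. The leukocyte genes PTPRC and CD3E, the endothelial genes CDH5 and TEK and the stromal genes COL3A1 and PDGFRB stayed at or under 0.0863 FPKM in every library. The endothelial sum, 13.5 to 14.98 FPKM with apigenin and 16.1 to 17.02 FPKM with DMSO, came from PECAM1 and KDR, the leukocyte sum, 50.4 to 54.4 FPKM with apigenin and 50.8 to 54.7 FPKM with DMSO, from CD68, and the stromal sum was 0.620 to 0.768 FPKM with apigenin and 0.648 to 0.769 FPKM with DMSO. CYP1A1, the classical target of the aryl hydrocarbon receptor, averaged 162 ± 6.30 CPM in apigenin libraries and 5.09 ± 0.651 CPM in DMSO libraries (SD, n = 3 each), with a log2 fold change of 4.99 ± 0.09 (SE; edgeR adjusted p = 1.59e-13).

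Few ABC genes were called changed with apigenin, and a gene that was not called may still have changed by a small amount. The cholesterol exporters ABCA1 and ABCG1 and the soluble ABCF2 rose by 25.3 to 34.6%, and ABCA2, an endosomal and lysosomal lipid transporter, fell by 22.4%. With edgeR's quasi-likelihood test and Benjamini-Hochberg adjustment over 15173 tested genes, 3 of the 37 tested ABC genes (8.11%) were higher and 1 (2.70%) was lower at an adjusted p of 0.05, against 2.76% of all tested genes higher and 4.22% lower. The other 33 tested genes did not pass, and 13 of the 37 had an unadjusted p under 0.05, against 24.4% of all tested genes. The apigenin and DMSO libraries did not overlap in CPM for 6 ABC genes with apigenin above (14.4% of all tested genes) and for 9 with apigenin below (15%). The median log2 fold change was -0.09 over the tested ABC genes and 0.0039 over all tested genes. The remaining 6 genes, ABCA8, ABCC8, ABCC9, ABCD2, ABCG4 and ABCG8, were under the low-count filter and were not tested.

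ABC genes are long, and gene length moved with treatment in these libraries. The tested ABC genes had a median length of 6737 nucleotides, against 3872 for all tested genes. Relative to the mean DMSO library, the log2 level changed per doubling of gene length by -0.071, -0.021 and -0.147 in apigenin libraries 1, 2 and 3, and by -0.0047 to 0.0032 in the DMSO libraries. Long genes therefore read lower in all apigenin libraries, most of all in apigenin 3. Among the 3372 tested genes of at least 6737 nucleotides, 1.3% were called higher and 10.6% lower, with a median log2 fold change of -0.13. Each fold change below is accompanied, where it matters, by its value after a smooth length trend was removed from every library. That fit called 4.51% of all genes higher and 5.46% lower, and it called 4 ABC genes higher (ABCA1, ABCG1, ABCF2 and ABCG2) and 2 lower (ABCA2 and ABCC3). The median over the tested ABC genes was then -0.03.

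**Figure D1:**
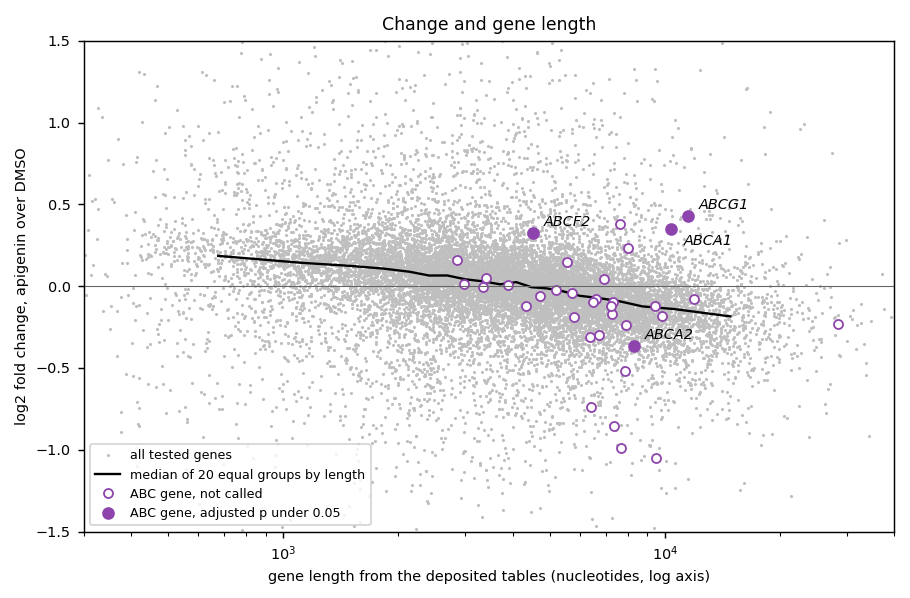
Log2 fold change of apigenin over DMSO (y axis) against gene length in nucleotides (x axis, log scale) for all tested genes (grey), the running median over length (line) and the ABC genes (purple, filled where the adjusted p was under 0.05); genes beyond the axis limits are not drawn. The median line slopes down with length, and ABCA1 and ABCG1, at 10408 and 11489 nucleotides, sit above it.

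The sequence just upstream of the annotated start is shown for the called genes with an entry in the RefSeq promoter table (GRCh38.p14), 200 bases each, 5′ to 3′ on the gene's own strand, which is the minus strand for these genes. ABCG1 is named only. The bases shortly after the start were found in a transcript of the GENCODE annotation for ABCA1 and ABCA2 but not for ABCF2, so the ABCF2 start is less certain. The capitals mark a near match to the direct repeat bound by LXR with RXR in ABCA1 (chr9:104928156-104928355), the antioxidant response core and then the aryl hydrocarbon receptor core in ABCA2 (chr9:137028923-137029122), and the aryl hydrocarbon receptor cores in ABCF2 (chr7:151227206-151227405).
ABCA1: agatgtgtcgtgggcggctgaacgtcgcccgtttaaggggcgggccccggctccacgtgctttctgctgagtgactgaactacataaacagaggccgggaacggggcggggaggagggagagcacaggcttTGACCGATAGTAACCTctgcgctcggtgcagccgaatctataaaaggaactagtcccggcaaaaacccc
ABCA2: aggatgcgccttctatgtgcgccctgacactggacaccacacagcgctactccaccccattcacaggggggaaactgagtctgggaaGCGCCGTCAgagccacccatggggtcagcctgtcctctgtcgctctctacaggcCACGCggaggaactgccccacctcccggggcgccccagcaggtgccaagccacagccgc
ABCF2: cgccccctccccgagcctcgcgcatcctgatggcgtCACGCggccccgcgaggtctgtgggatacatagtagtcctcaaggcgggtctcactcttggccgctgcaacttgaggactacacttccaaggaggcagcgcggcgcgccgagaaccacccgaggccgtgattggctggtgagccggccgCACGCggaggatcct
In the ABCA1 stretch the capitals span the bases 69 to 54 before the start. The motifs of all 3 genes read on the strand opposite to the one printed.

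Motifs were sought on both strands in the 300-base windows, from 250 bases before the start to 50 after it, of 35116 RefSeq promoters, which include 34 of the ABC genes. The receptor core GCGTG was in 13 of the 34 (38.2%) and in 36.5% of all promoters. The antioxidant core TGACNNNGC was in 7 of the 34 (20.6%) and in 13.3% of all. The GC box GGGCGG was in 18 of the 34 (52.9%) and in 44.95% of all. The direct repeat bound by LXR with RXR, the half-site AGGTCA given 2 times with 4 bases between, was in none of the 34 as spelled and in 0.0199% of all promoters. With at most 1 mismatch in each half-site, an allowance chosen after the exact search, it was in ABCA1, ABCC6 and ABCD2 (8.82% of the 34) and in 1.38% of all. These counts describe letters in a short window and say nothing of binding.

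ABC transcripts were unevenly spread over the family. ABCC2, which exports glutathione and glucuronide conjugates across the canalicular membrane, had the highest level, with 92.8 ± 7.72 FPKM in apigenin libraries and 105 ± 2.16 FPKM in DMSO libraries (SD, n = 3 each). It made up 19.7 ± 0.84% of the family's summed FPKM with apigenin and 21.4 ± 0.39% with DMSO. Next came ABCE1, the ribosome-recycling factor (59.7 ± 1.32 FPKM with apigenin, 59.6 ± 1.96 with DMSO), ABCC3, the basolateral conjugate exporter (49.8 ± 4.27 FPKM with apigenin, 56.9 ± 1.69 with DMSO), and ABCG2, the breast cancer resistance protein (36.3 ± 0.85 FPKM with apigenin, 32.8 ± 1.07 with DMSO). The library values of ABCE1 and ABCC3 did not overlap with apigenin and overlapped with DMSO. The summed FPKM of all ABC genes was 474, 489 and 450 in apigenin libraries 1, 2 and 3, against 489, 487 and 489 in the DMSO libraries. Apigenin 3 was the lowest and apigenin 2 lay among the DMSO values, so the groups overlapped.

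**Figure D2:**
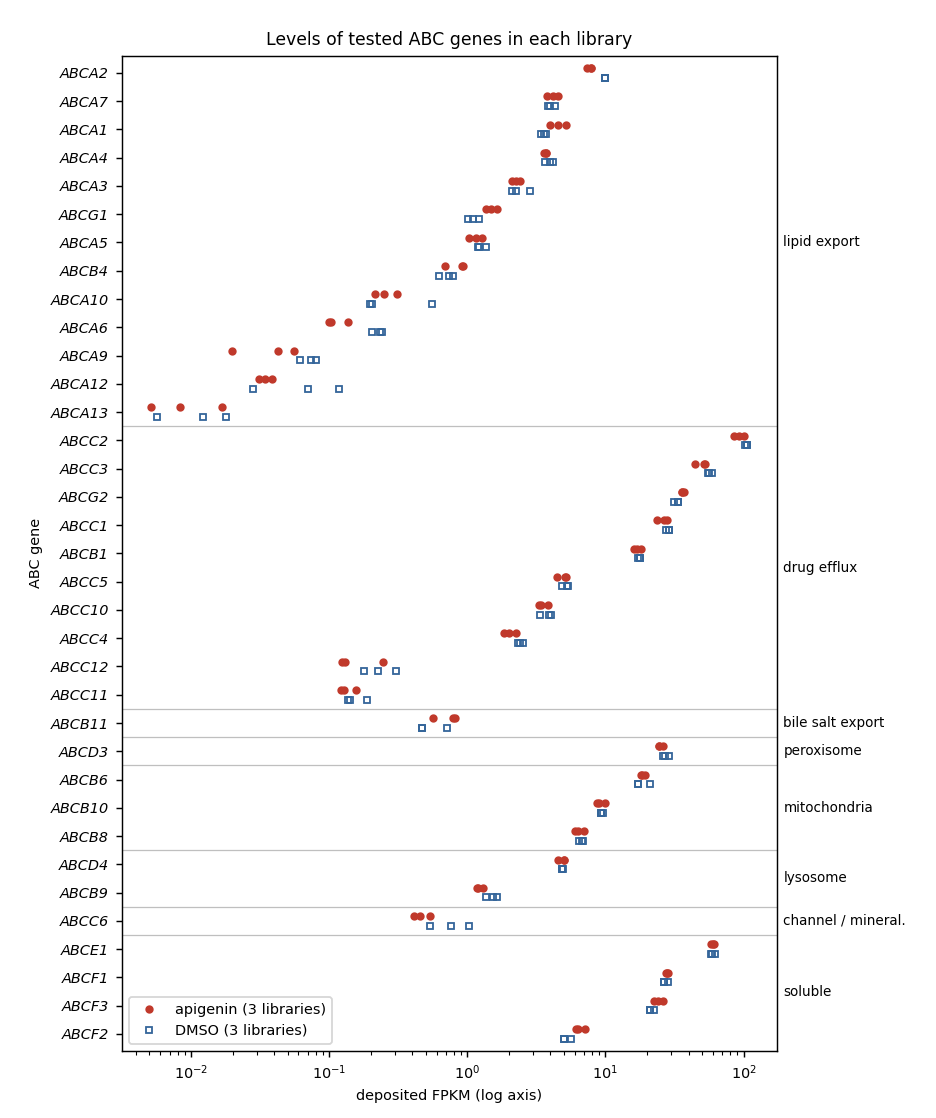
Deposited FPKM (x axis, log scale) of tested ABC genes in each apigenin and DMSO library, grouped by role. ABCC2, ABCE1 and ABCC3 lie highest, at 92.8, 59.7 and 49.8 FPKM on average with apigenin and 105, 59.6 and 56.9 FPKM with DMSO.

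By role, the summed FPKM of the drug and conjugate exporters averaged 233 ± 16.2 with apigenin and 252 ± 2.07 with DMSO. The lipid exporters summed to 26.4 ± 1.3 FPKM with apigenin and 27.7 ± 0.45 FPKM with DMSO. The soluble E and F genes summed to 118 ± 1.99 FPKM with apigenin and 113 ± 0.87 FPKM with DMSO. The mitochondrial genes summed to 44.3 ± 1.40 FPKM with apigenin and 45.3 ± 2.42 FPKM with DMSO (SD, n = 3 each throughout). By subfamily, all 9 tested C genes had negative log2 fold changes, with a median of -0.18, while all 3 F genes and both tested G genes had positive ones. With the length trend removed ABCC5 turned to 0.08, the other C genes stayed negative and the F and G genes stayed positive. These were bulk libraries, so fewer cells of a type and less RNA per cell cannot be told apart.

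Among the lipid exporters, 2 of the 13 tested genes rose, 1 fell and 10 did not pass. Of all tested genes 2.76% were higher and 4.22% lower, or 1.3% and 10.6% among those of at least 6737 nucleotides. ABCA1 (9:104781006-104928155, GRCh38.p14), which loads cholesterol and phospholipid onto apolipoprotein A-I, had 47.3, 53.8 and 42.0 CPM in apigenin libraries 1, 2 and 3, against 37.4, 35.7 and 39.1 CPM in DMSO libraries 1, 2 and 3. Every apigenin library lay above every DMSO library, and apigenin 2 was the highest. ABCA1 averaged 47.7 ± 5.94 CPM with apigenin and 37.4 ± 1.66 CPM with DMSO (SD, n = 3 each), with a log2 fold change of 0.35 ± 0.09 (SE), a 95% interval of 0.16 to 0.54 and an edgeR adjusted p of 0.0313. ABCG1 (21:42199689-42297244), which passes cholesterol on to high-density lipoprotein, had 18.7, 16.8 and 15.8 CPM in apigenin libraries and 12.5, 11.6 and 14.0 CPM in DMSO libraries. Its groups did not overlap either, and its lowest apigenin library stood above the highest DMSO library. ABCG1 averaged 17.1 ± 1.47 CPM with apigenin and 12.7 ± 1.2 CPM with DMSO (SD, n = 3 each), a log2 fold change of 0.43 ± 0.11 (SE; edgeR adjusted p = 0.0349).

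Both rises were larger with the length trend removed, at log2 fold changes of 0.49 for ABCA1 and 0.59 for ABCG1 (edgeR adjusted p = 4.50e-05 and 0.00139). As first fitted, both calls were lost when apigenin 1 or any 1 of the DMSO libraries was left out, with edgeR adjusted p-values of 0.0974 to 0.146 for ABCA1 and 0.0634 to 0.152 for ABCG1. In those 4 fits 0.663 to 0.9% of all genes were called higher. With the length trend removed, both calls held whichever library was left out. Over all 24 other settings the adjusted p ran 1.21e-07 to 0.247 for ABCA1 and 4.67e-05 to 0.239 for ABCG1.

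ABCA2 (9:137007234-137028922) had the clearest change of the family. It had 65.3, 64.9 and 61.7 CPM in apigenin libraries and 81.9, 82.7 and 82.8 CPM in DMSO libraries. The libraries of each group lay close together and far from the other group. ABCA2 averaged 64.0 ± 2.03 CPM with apigenin and 82.5 ± 0.49 CPM with DMSO (SD, n = 3 each), and fell by 0.37 ± 0.06 on the log2 scale (SE; 95% interval -0.50 to -0.24; edgeR adjusted p = 0.00294). It fell by 0.26 with the length trend removed (edgeR adjusted p = 0.00395). The call held in 24 of 24 other settings, with adjusted p-values of 6.97e-06 to 0.0433. Listed genes whose loci overlap ABCA1, ABCG1 or ABCA2 had at most 150 counts in either group's 3 libraries together.

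**Figure D3:**
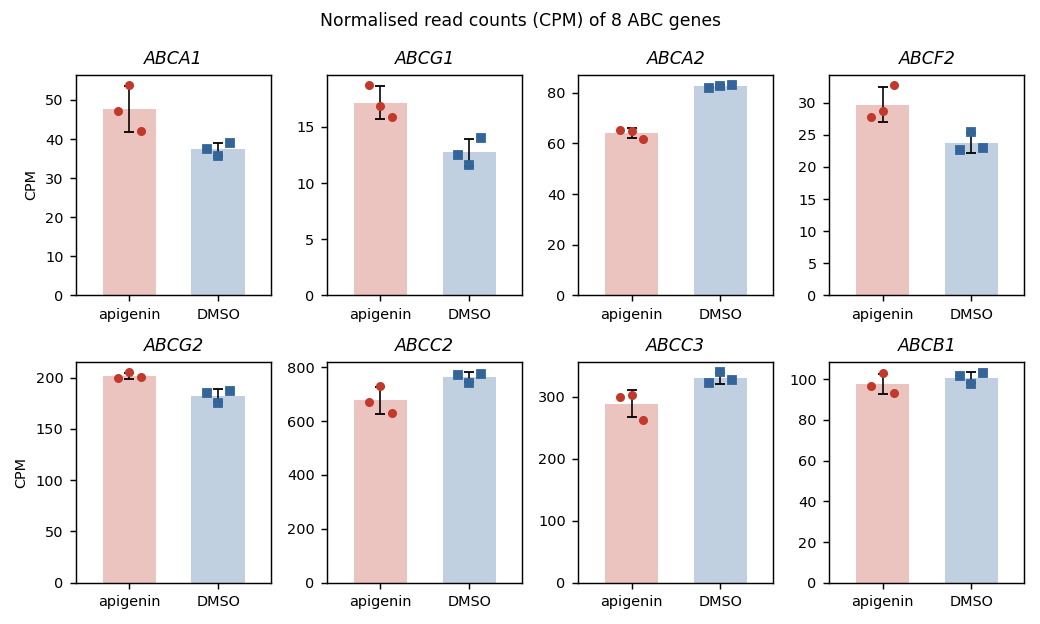
CPM (y axis, from 0) of 8 ABC genes in apigenin and DMSO libraries; points are libraries, bars group means and error bars SD (n = 3 each). Points of the groups do not overlap for ABCA1, ABCG1, ABCF2 and ABCG2, with apigenin above, nor for ABCA2, ABCC2 and ABCC3, with apigenin below, while those of ABCB1 overlap.

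The other tested lipid exporters did not pass. ABCA7, a phospholipid exporter, had 31.6, 25.9 and 29.4 CPM with apigenin and 29.8, 27.6 and 26.7 CPM with DMSO. Its groups overlapped, with a log2 fold change of 0.05 (95% interval -0.15 to 0.24; edgeR adjusted p = 0.808). ABCA3, the surfactant lipid transporter of the lung, and ABCA4, the retinoid flippase of photoreceptors, were at -0.08 and -0.10. ABCB4, which flips phosphatidylcholine into bile, was at 0.23 ± 0.16 (SE), and its locus overlaps that of CROT, whose counts summed to 1586 with apigenin and 2002 with DMSO. ABCA5, ABCA6, ABCA9, ABCA10, ABCA12 and ABCA13 were at most 12.9 CPM in any library and had log2 fold changes of -1.05 to -0.12. Of these, ABCA6 had 0.80, 1.04 and 0.77 CPM with apigenin and 1.86, 1.55 and 1.79 CPM with DMSO, without overlap, but its edgeR adjusted p was 0.0865. ABCG4, ABCA8 and ABCG8 were near background: ABCG4, a brain cholesterol exporter, had 4, 1 and 0 counts with apigenin and 0 counts in each DMSO library.

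No drug or conjugate exporter was called among the 10 tested with edgeR. Of these 10, 4 had an unadjusted p under 0.05, 9 had negative log2 fold changes, and the median was -0.15, or -0.04 with the length trend removed. DESeq2 called ABCC2 and ABCC3 lower, and limma on FPKM called none. ABCC2 (10:99782640-99852594) had 671, 729 and 630.4 CPM in apigenin libraries and 770.4, 743 and 776 CPM in DMSO libraries. All apigenin values lay under all DMSO values, apigenin 2 narrowly so. Its log2 fold change was -0.17 ± 0.06 (SE; 95% interval -0.30 to -0.05; edgeR adjusted p = 0.0847), and -0.08 with the length trend removed. ABCC3 (17:50634881-50692253) had 300.03, 303 and 263.5 CPM with apigenin and 322, 339.6 and 328 CPM with DMSO. Its groups did not overlap, and apigenin 3 was the lowest library. Its log2 fold change was -0.19 ± 0.06 (SE; edgeR adjusted p = 0.0764), and -0.14 with the length trend removed (adjusted p = 0.0455). Leaving out apigenin 2 brought both genes past the threshold, with edgeR adjusted p-values of 0.00439 for ABCC2 and 0.0144 for ABCC3. That fit called 9.97% of all genes lower. Over the 24 other settings the adjusted p ran 0.00439 to 0.415 for ABCC2 and 0.0144 to 0.259 for ABCC3.

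ABCG2 (4:88090264-88231626) was the single drug exporter with a positive log2 fold change. It had 200.02, 205.1 and 200.2 CPM in apigenin libraries, against 185.4, 175.1 and 186.8 CPM in DMSO libraries. All apigenin libraries lay above all DMSO libraries. ABCG2 averaged 201.8 ± 2.90 CPM with apigenin and 182 ± 6.43 CPM with DMSO (SD, n = 3 each), a log2 fold change of 0.15 ± 0.05 (SE; 95% interval 0.03 to 0.26) that missed the threshold (edgeR adjusted p = 0.118). With the length trend removed it was 0.19 and passed (adjusted p = 0.00925). It passed in 8 of the 24 other settings (adjusted p 0.00486 to 0.377), among them the fit without apigenin 3 (0.0411). Its share of the family's FPKM was 7.71 ± 0.17% with apigenin and 6.72 ± 0.20% with DMSO.

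ABCB1 (7:87503017-87713295), which encodes P-glycoprotein, had 96.9, 103 and 93.4 CPM with apigenin and 101, 97.7 and 103 CPM with DMSO. The groups overlapped throughout. Its log2 fold change was -0.04 ± 0.06 (SE), with a 95% interval of -0.17 to 0.09 (edgeR adjusted p = 0.731), and 0.0056 with the length trend removed. ABCC1, the glutathione-conjugate exporter MRP1, averaged 188 ± 14.1 CPM with apigenin and 205 ± 6.17 CPM with DMSO (SD, n = 3 each; log2 fold change -0.12; edgeR adjusted p = 0.263). ABCC4, an exporter of cyclic nucleotides and bile acids, had its apigenin values of 14.6 to 17.7 CPM under its DMSO values of 18.3 to 19.9 CPM, with a log2 fold change of -0.23 (edgeR adjusted p = 0.172). ABCC5 and ABCC10 were at -0.08 and -0.09, and ABCC11 and ABCC12 stayed under 2.41 CPM in every library.

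**Figure D4:**
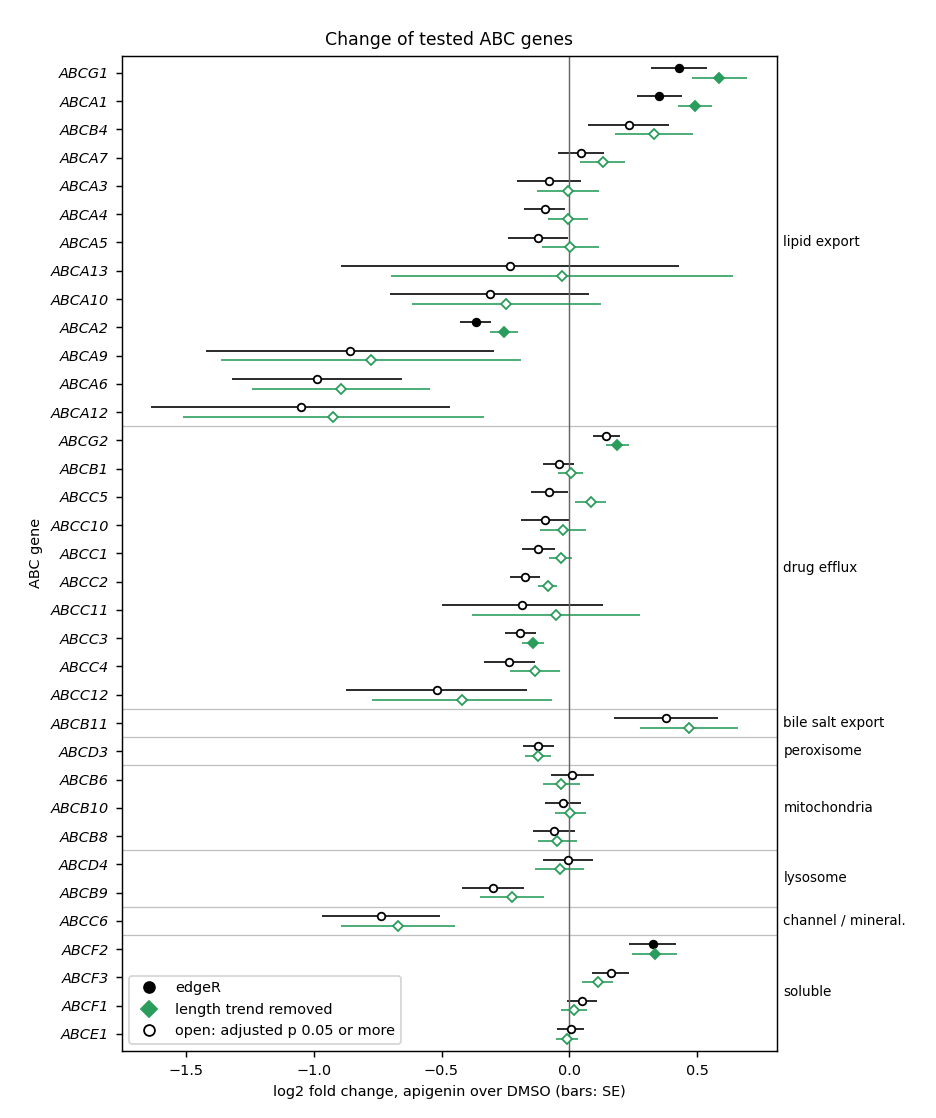
Log2 fold change of apigenin over DMSO (x axis; bars are SE) for tested ABC genes by role, from edgeR (black) and with the length trend removed (green), filled where the adjusted p was under 0.05. ABCA1, ABCG1, ABCF2 and ABCA2 are filled in both fits, and ABCG2 and ABCC3 in green alone.

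ABCB11, the bile salt export pump, was low at 0.719 ± 0.137 FPKM with apigenin and 0.553 ± 0.139 FPKM with DMSO (SD, n = 3 each). It had 5.99, 6.16 and 4.35 CPM in apigenin libraries and 5.46, 3.61 and 3.62 CPM in DMSO libraries. The groups overlapped, and the log2 fold change of 0.38 ± 0.20 (SE) did not pass (edgeR adjusted p = 0.280).

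None of the organelle transporters described here was called with edgeR, DESeq2 or limma, and of these ABCB9 had an unadjusted p under 0.05. ABCD3, the peroxisomal importer of branched-chain acids and bile acid intermediates, had 106, 112 and 106.5 CPM with apigenin and 124, 112.5 and 117 CPM with DMSO, a log2 fold change of -0.12 ± 0.06 (SE). Its apigenin values lay below those with DMSO, narrowly for apigenin 2 and DMSO 2, and it did not pass (edgeR adjusted p = 0.235).

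The mitochondrial genes ABCB6, a porphyrin transporter, ABCB8, and ABCB10, which supports heme synthesis, had log2 fold changes of 0.01, -0.06 and -0.03 in that order. ABCB6 had 57.9, 53.8 and 55.5 CPM with apigenin and 51.6, 63.0 and 51.1 CPM with DMSO. Its groups overlapped, DMSO 2 being the highest library. The lysosomal cobalamin transporter ABCD4 had 16.6, 15.0 and 16.9 CPM with apigenin and 16.1, 16.2 and 16.5 CPM with DMSO, and a log2 fold change of -0.0050. The lysosomal peptide transporter ABCB9 had 8.73, 8.04 and 7.98 CPM with apigenin and 10.3, 10.9 and 9.18 CPM with DMSO. Its groups did not overlap, with a log2 fold change of -0.30 ± 0.12 (SE; edgeR adjusted p = 0.149). The ABCB9 locus overlaps that of OGFOD2 over 389 bases, and OGFOD2 counts summed to 2997 with apigenin and 3086 with DMSO.

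ABCC6, whose activity in hepatocytes releases ATP and restrains soft-tissue mineralization, had 3.42, 2.87 and 2.68 CPM with apigenin and 6.62, 4.84 and 3.47 CPM with DMSO. The apigenin libraries lay below the DMSO libraries, which spread widely. Its log2 fold change of -0.74 ± 0.23 (SE) did not pass (edgeR adjusted p = 0.0684), passed without DMSO 3 (0.0462) and ran 0.00878 to 0.388 over the other settings. ABCC6 has near-identical pseudogene copies, so its counts are uncertain. ABCC8, the sulfonylurea receptor of insulin-secreting cells, had 6, 1 and 1 counts with apigenin and 9, 12 and 0 counts with DMSO, and ABCC9 had 1 read in all 6 libraries.

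As first fitted, the soluble genes all had positive log2 fold changes and 1 of the 4 rose, against 2.76% of all tested genes higher. With the length trend removed their median went from 0.11 to 0.07, and ABCE1 turned to -0.0086. ABCF2 (7:151211484-151227205) had 27.7, 28.6 and 32.7 CPM in apigenin libraries and 22.7, 25.5 and 22.9 CPM in DMSO libraries. All apigenin libraries lay above all DMSO libraries, apigenin 3 most. ABCF2 averaged 29.7 ± 2.68 CPM with apigenin and 23.7 ± 1.55 CPM with DMSO (SD, n = 3 each), a log2 fold change of 0.33 ± 0.09 (SE; edgeR adjusted p = 0.0460). The call sat close to the threshold: it was lost in 11 of the 24 other settings, among them the fits without apigenin 1, apigenin 3 or any 1 DMSO library (adjusted p 0.0835 to 0.194), and ran 0.00487 to 0.194 over all of them. In those fits without 1 library 0.663 to 3.69% of all genes were called higher. The ABCF2 locus overlaps the readthrough gene ABCF2-H2BK1 over 15722 bases, and reads of the 2 cannot be told apart.

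The remaining soluble genes did not pass. ABCE1, which splits ribosomes after termination, had 233, 235 and 229 CPM with apigenin and 229.6, 225 and 241 CPM with DMSO. Its values were interleaved, with a log2 fold change of 0.0049 and a 95% interval of -0.11 to 0.12. ABCF1, which binds ribosomes and initiation factor eIF2, had 92.9, 96.4 and 95.8 CPM with apigenin and 95.9, 89.6 and 90.1 CPM with DMSO, a log2 fold change of 0.05. ABCF3 had 64.1, 67.5 and 74.8 CPM with apigenin and 60.2, 64.1 and 60.2 CPM with DMSO, a log2 fold change of 0.16 (edgeR adjusted p = 0.183).

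TAP1 and TAP2, the antigen peptide transporter of the B subfamily listed under other symbols, were counted apart from the 43. TAP2 had 54.7, 57.2 and 53.7 CPM with apigenin and 48.2, 49.9 and 49.6 CPM with DMSO, without overlap. Its log2 fold change of 0.16 ± 0.07 (SE) did not pass (edgeR adjusted p = 0.138) but did with the length trend removed (0.0168; 0.0168 to 0.372 over the other settings). TAP1 had overlapping groups and a log2 fold change of 0.17 ± 0.09 (SE; edgeR adjusted p = 0.294). CFTR was not analysed here.

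Genes that regulate ABC transcription were measured in the same fit, and 2 of the 11 tested rose and 2 fell, against 2.76% of all tested genes higher and 4.22% lower. NFE2L2, the activator of antioxidant genes, had 132, 139.8 and 136 CPM with apigenin and 95.3, 92.8 and 103 CPM with DMSO, and rose by a log2 fold change of 0.49 ± 0.06 (SE; edgeR adjusted p = 0.000394). RXRA, the shared partner of LXR and other nuclear receptors, rose with 201, 207 and 202 CPM in apigenin libraries, against 156, 163 and 159 CPM in DMSO libraries (log2 fold change 0.35 ± 0.05; edgeR adjusted p = 0.00178). AHR, the aryl hydrocarbon receptor, fell with 141, 152 and 136 CPM in apigenin libraries, against 193.6, 184 and 195 CPM in DMSO libraries (log2 fold change -0.42 ± 0.06; edgeR adjusted p = 0.00117). These groups did not overlap, and leaving out any single library kept the 3 calls. NR1I2, the pregnane X receptor that drives ABCB1 in liver, fell with 23.2, 21.9 and 15.6 CPM with apigenin and 26.5, 29.3 and 27.1 CPM with DMSO. Its log2 fold change was -0.45 ± 0.12 (SE; edgeR adjusted p = 0.0442), and the call was lost without apigenin 1 or any 1 DMSO library, with adjusted p-values up to 0.175.

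The receptors LXR alpha (NR1H3) and LXR beta (NR1H2), which activate ABCA1 and ABCG1 when bound by oxysterols, had log2 fold changes of -0.02 and 0.07 (edgeR adjusted p = 0.942 and 0.554). With their targets and other genes of cholesterol handling, 0 of 11 tested genes were called by edgeR as first fitted, and 3 had an unadjusted p under 0.05. DESeq2 called 0 of the 12 it fitted, but not all of these were tested. It gave no adjusted p for APOA1, so that gene was not tested there. PLTP, described below, had fewer reads than APOA1 and is not counted as tested there either. APOA1, the apolipoprotein that accepts lipid from ABCA1, had 0.236, 0.626 and 0.863 CPM in apigenin libraries and 1.51, 0.99 and 1.94 CPM in DMSO libraries. Its groups did not overlap, with a log2 fold change of -1.35 ± 0.48 (SE; edgeR adjusted p = 0.1002). The call depended on the fit: edgeR called APOA1 lower with the length trend removed (adjusted p = 0.0484), without the low-count filter (0.0288) and without apigenin 3 (0.0355), and adjusted p-values without 1 library reached 0.333. The sterol-induced ubiquitin ligase MYLIP, another LXR target, was at 0.10 ± 0.12 (SE). The untested PLTP, the phospholipid transfer protein and also an LXR target, had 13, 2 and 9 counts in apigenin libraries and 0 counts in each DMSO library. Against a floor of 3 counts for the DMSO libraries together, its apigenin counts were 8.24-fold higher, scaled to library totals. That ratio leaves out the spread of the apigenin counts and is not a lower bound. The edgeR adjusted p of PLTP without the low-count filter was 0.0380. That fit called 1 gene of the list higher and 1 lower, against 3.75% of all genes in it higher and 4.75% lower. PLTP and APOA1 were chosen after their values were seen.

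Of 9 genes whose proteins hold or place transporters in the canalicular membrane, 3 fell and none rose, against 4.22% of all tested genes lower, and all 9 had apigenin below DMSO without overlap, against 15% of all tested genes. PDZK1, a scaffold that binds ABCC2, had 17.9, 18.8 and 17.03 CPM with apigenin and 27.3, 25.3 and 21.2 CPM with DMSO (log2 fold change -0.46 ± 0.10; edgeR adjusted p = 0.0197). The scaffold SLC9A3R1 had 240.4, 226 and 244 CPM with apigenin and 273, 275 and 271 CPM with DMSO, and fell by 0.21 ± 0.05 on the log2 scale (edgeR adjusted p = 0.0365). Radixin (RDX), the actin linker that anchors ABCC2 in mouse liver, fell by 0.25 ± 0.07 (edgeR adjusted p = 0.0477). The median over the list was -0.19, or -0.13 with the length trend removed, which called 5 of the 9 lower (5.46% of all tested genes). Without apigenin 1, DMSO 1 or DMSO 2 none of the 9 was called, and without DMSO 3 there was 1, with adjusted p-values up to 0.132 for PDZK1, 0.162 for SLC9A3R1 and 0.207 for RDX.

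Of 13 genes that make glutathione or its conjugates, the substrates of ABCC1 to ABCC3, 2 rose: GSTM3 and MGST1, with log2 fold changes of 0.28 ± 0.07 and 0.21 ± 0.06 (SE; edgeR adjusted p = 0.0265 and 0.0355). The background was 2.76% of all tested genes higher. In the fit with the length trend removed, edgeR called 3 of the 13 higher and 1 lower, and 6 had positive log2 fold changes, against 9 as first fitted. Both first calls were lost without apigenin 1 or any 1 DMSO library (adjusted p up to 0.146 and 0.181). Of 19 genes for heme and iron-sulfur clusters, the pathways of the mitochondrial ABC genes, 2 rose, none fell and 16 had positive log2 fold changes, or 14 with the length trend removed, where 3 were called higher and 1 lower. Of all tested genes 2.76% were higher and 4.22% lower, or 4.51% and 5.46% with the length trend removed. The list had a median log2 fold change of 0.13, against 0.0039 over all tested genes. Its median length was 3401 nucleotides, against 3872 for all tested genes. CPOX, coproporphyrinogen oxidase, had 129, 137 and 132 CPM in apigenin libraries and 101, 98.2 and 95.3 CPM in DMSO libraries. The groups stood apart, with a log2 fold change of 0.43 ± 0.06 (SE; edgeR adjusted p = 0.000722), and the call held without any single library. FECH, ferrochelatase, rose by 0.22 ± 0.06 (edgeR adjusted p = 0.0475), and lost the call without apigenin 1 or any 1 DMSO library (up to 0.195). In the fits without apigenin 1 or any 1 DMSO library, 0.663 to 0.9% of all genes were called higher.

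As first fitted, edgeR called no gene among 14 of peroxisomal oxidation and import (4 with an unadjusted p under 0.05; DESeq2 called 1 lower), 11 of ribosome recycling and the GCN2 pathway (2; DESeq2 called 0) or 7 tested hepatic uptake transporters (0; DESeq2 called 0). Once the length trend was removed, edgeR called 2 peroxisomal genes lower, 1 recycling gene higher and 1 uptake transporter higher, against 4.51% of all tested genes higher and 5.46% lower in that fit. The uptake carriers SLCO1B1 and SLC10A1, which bring bile acids and drugs into hepatocytes, were too low to be tested.

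**Figure D5:**
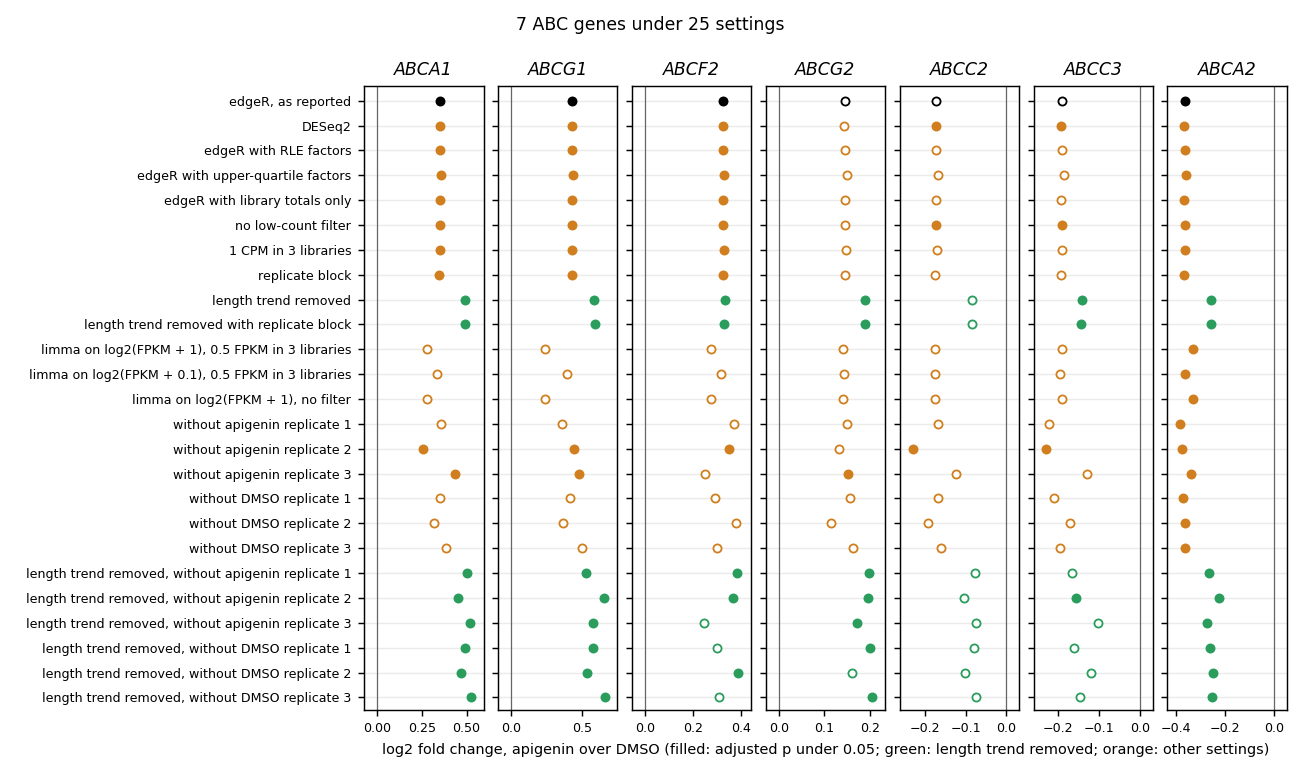
Log2 fold change of apigenin over DMSO (x axis) of 7 ABC genes in each of 25 settings (y axis), filled where the adjusted p was under 0.05. ABCA2 is filled in all 25, while ABCA1 and ABCG1 are open in 7 of the 24 other settings and ABCF2 in 11.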

How the data were processed

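Total RNA of HCC-LM3 cells was taken up in TRIzol, and a VAHTS Universal V6 kit gave the sequencing libraries, per the labels' protocols. The tools fastp, HISAT2 and HTSeq and the build GRCh38 are named, per the submitters' processing notes, without versions, and whether counting used strand is not stated, so reads of overlapping genes cannot be told apart. The authors deposited, for each of the 6 samples, whole-number read counts per gene symbol and FPKM values. The deposited FPKM equal count over gene length and library total for 100% of values (relative tolerance 0.0001), which yields each gene's length, and FPKM were used to compare levels between genes.

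CPM are counts per 1000000 of each library's effective size, that is its total after the low-count filter multiplied by its TMM factor. Groups came from the titles. Apigenin was compared with DMSO on the deposited counts with edgeR 4.0.16 (R 4.3.3), using TMM factors, the default low-count filter, the quasi-likelihood test and Benjamini-Hochberg adjustment over all tested genes at 0.05, two-sided. SE was taken as the absolute log2 fold change divided by the square root of F. The length trend was removed as an offset per library (lowess on log2 length, span 0.3). DESeq2 1.42.0 and limma 3.58.1 on log2(FPKM + pseudocount) were alternatives. The fits were tested on simulated data, with changed genes drawn from those with a mean count of 100 or more. Without a length slope, edgeR called 10 of 50 genes changed 1.2-fold and 40 of 50 changed 1.5-fold, with 10 false calls. With a length slope in the simulated apigenin libraries, edgeR as reported called 8 and 44 of 50, with 36 false calls. Removing the length trend there gave 5 and 44 of 50, with 14 false calls. No library copied another: chi-square over degrees of freedom was 8.81 to 27.5 between apigenin libraries and 4.35 to 5.15 between DMSO libraries.

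The ABC genes, gene lists, tests and alternatives were chosen with earlier results of these data known. Per-library values are given for called ABC genes, for ABCB1, ABCC2, ABCC3, ABCG2, ABCA1 and ABCG1, and for the 2 highest by FPKM in each role, and other ABC genes may be named, some here after their values were seen. Called genes of a partner list with a mean of 1 CPM or more were named, up to 3 by adjusted p. Gene positions and promoters are from RefSeq (GRCh38.p14), where 43 ABC symbols and 21748 of all symbols matched. ABCB5 and ABCG5 were not analysed here, and some ABC genes that enter the counts and sums are not reported here by name.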

Additional observations from a re-analysis of the deposited data

How the results depend on the processing

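The count of ABC genes called higher was 3 as reported and 0 under each of the 3 limma settings on FPKM, and leaving out 1 library gave 0 to 4. The count called lower was 1 as reported, 4 with DESeq2 and 4 without a low-count filter (ABCA2, ABCC2, ABCC3 and ABCC6 in both), 2 with the length trend removed, and 1 to 3 with 1 library left out. Of all genes, 4.22% were called lower as reported, 7.37% with DESeq2, 4.75% without the filter and 5.46% with the length trend removed. The replicate block gave 3 higher and 2 lower (ABCA2 and ABCC6), and the block with the length trend removed gave 4 higher and 3 lower (with ABCC3). The labels do not say whether the numbers 1 to 3 pair the libraries. Same-numbered libraries had correlations of -0.0482 to -0.0173 in their deviations from group means, and differently numbered ones had -0.0113 to 0.0305. No shared effect was seen, but 3 libraries a group cannot settle whether they were paired. With the length trend removed and 1 library left out, a choice made after seeing the data, 3 to 4 were higher and 1 to 2 lower. The share of all genes called higher ran 0.338 to 8.66% over the settings, and the share called lower ran 0.26 to 9.97%. The cause of these shifts was not tested.

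Of 456 values for 19 ABC genes under other settings, 375 kept direction and side of the threshold, 25 lost a call, 25 gained one and 31 changed sign, none of these called. With the length trend removed, the log2 fold change turned to 0.0056 for ABCB1, -0.032 for ABCB6 and -0.0086 for ABCE1, and with the replicate block as well to 0.0057, -0.027 and -0.0081 for the same genes. With upper-quartile factors ABCD4 turned to 0.00041. With 1 library left out, the values ran -0.021 to 0.12 for ABCA7, -0.041 to 0.12 for ABCB6, -0.039 to 0.045 for ABCD4 and -0.018 to 0.033 for ABCE1. With both the length trend removed and 1 library left out, ABCB1 turned to 0.016, 0.014, 0.0097 and 0.021 without apigenin 1, apigenin 3, DMSO 1 and DMSO 3, and ABCB6 to -0.060, -0.022, -0.013, -0.078 and -0.083 without apigenin 1, 2 and 3 and DMSO 1 and 3. Likewise ABCE1 turned to -0.0092, -0.015, -0.015 and -0.031 without apigenin 1 and 2 and DMSO 1 and 2, ABCD4 to 0.0056 without apigenin 2 and ABCF1 to -5.5e-05 without DMSO 2. With 3 libraries a group, standard errors of the log2 fold change were 0.05 or more for every tested ABC gene, and above 0.3 for those under about 2 CPM.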

Other observations

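The A-subfamily genes ABCA8, ABCA9, ABCA6, ABCA10 and ABCA5 lie side by side on chromosome 17, with 19.1 kb between ABCA8 and ABCA9 and 6.11 kb between ABCA6 and ABCA10, while ABCA9 and ABCA6, and ABCA10 and ABCA5, overlap at their ends in RefSeq. The 4 tested genes of this run had log2 fold changes of -0.86, -0.99, -0.31 and -0.12 in that order after ABCA8, and none was called. ABCA9 and ABCA6 had all apigenin libraries below all DMSO libraries, as did 15% of all tested genes. ABCA9 had only 14, 12 and 5 counts with apigenin and 22, 17 and 19 counts with DMSO, and the SE of its log2 fold change was 0.56. Both genes of each overlapping pair lie on the minus strand, so reads over the overlapping ends could not be assigned to 1 gene even with strand.

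Differences between neighbouring genes were not tested. ABCB4 and ABCB1, 27.0 kb apart on chromosome 7, had log2 fold changes of 0.23 and -0.04. ABCC1 and ABCC6, 6.51 kb apart on chromosome 16, had -0.12 and -0.74, and ABCC12 and ABCC11, 8.83 kb apart on the same chromosome, had -0.52 and -0.18. None of these was called.

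Within the untested ABC genes, ABCD2, a peroxisomal fatty acid importer, had 1, 6 and 5 counts with apigenin and 1, 9 and 7 counts with DMSO. ABCA8 had 0, 4 and 1 counts with apigenin and 0, 1 and 1 counts with DMSO. ABCG8, the partner of ABCG5 in cholesterol secretion into bile, had 1, 0 and 0 counts with apigenin and 1, 0 and 4 counts with DMSO.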
